A study of Mus musculus with 4 samples.

Results

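The cells described here are aortic T cells that carried UMIs of Nkg7, a gene of cytotoxic lymphocyte granules. A UMI (unique molecular identifier) is counted once per captured transcript. Cells had to pass limits on detected genes (200 to 6000) and on the mitochondrial share of their UMIs (15% at most). From those, the rule took every cell that had at least 2 UMIs of Cd3d, Cd3e and Cd3g together, at least 2 of Nkg7, none of the thymocyte genes Rag1 and Dntt, and at most 2 of the division genes Mki67 and Top2a. The rule found 149 cells among 14148, a share of 1.05% (95% exact Clopper-Pearson interval 0.892 to 1.24%, counting error only). They made up 30.3% (26.3 to 34.6) of the 492 noncycling Cd3-positive cells without Rag1 or Dntt. The working label of this population was cytotoxic Nkg7-positive T cells. Since only some of them carried granzyme or perforin transcripts, they are called Nkg7+ T cells below.

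The study profiled single cells of the aortic arch with its branches, with perivascular tissue, sorted as DAPI-negative, in 4 libraries of male mice that were 3 months old at the start. The control Nrf2 flox/flox library and the control library labelled Nrf2Cdh5tKO (tKO) came from mice on standard diet that had received saline, 4 mice pooled in each. The high-fat flox/flox library and the high-fat library labelled tKO came from mice on a high-fat diet for 21 weeks, 3 mice pooled in each, which differed from the control mice in their injection as well as in their diet. All 4 groups carry the floxed Nfe2l2 allele, the gene of Nrf2. In tKO mice the Cre recombinase is driven by the Cdh5 promoter, which is active in endothelium and in a part of blood-forming cells, so it is not known which of these T cells had recombined. Each group is 1 library of pooled mice, so there is no test between groups, and every interval below covers counting error only. Values over libraries are given in the order control flox/flox, control labelled tKO, high-fat flox/flox and high-fat labelled tKO.

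Cytotoxic T cells and NK cells kill by releasing perforin, which opens the target membrane, and granzymes, proteases that start cell death, or by showing Fas ligand to cells that carry Fas. They also secrete chemokines such as Ccl5 and Xcl1 and the cytokine interferon gamma. In atherosclerotic vessels such cells are found in plaque and adventitia beside macrophages and other T cells.

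Nfe2l2 was read first, as a check of the labels. In the endothelial cells (Cdh5 at least 2 UMIs, no Ptprc), it reached 156 CPM (122 to 197) and 325 CPM (269 to 389) in the control libraries and 179 CPM (120.2 to 258) and 342 CPM (268 to 431) in the high-fat libraries, where CPM are UMIs of the gene per 1000000 UMIs of those cells. In the Nkg7+ T cells the levels of Nfe2l2 were 104 (78.4 to 135), 166 (129 to 210.3), 83.9 (48.8 to 134) and 145 (99.4 to 205) CPM. The libraries labelled tKO were thus the higher ones in both kinds of cells, and their counts go against a loss of the transcript. The label is of an excised exon 5, and whether the counted reads lie in it cannot be seen in counts per gene, so these values do not check the excision.

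The 4 libraries held 57, 40, 25 and 27 Nkg7+ T cells. These were 0.722% (0.548 to 0.935), 1.35% (0.963 to 1.83), 2.45% (1.59 to 3.6) and 1.19% (0.787 to 1.73) of their kept cells. The interval of the control flox/flox library lay below those of the control library labelled tKO and the high-fat flox/flox library. As a share of the noncycling Cd3-positive cells, these were 23.2% (18 to 29), 34.2% (25.7 to 43.5), 36.2% (25 to 48.7) and 45% (32.1 to 58.4). For the shares of Cd3-positive cells, the intervals of all 4 libraries overlapped but for those of the control flox/flox and the high-fat library labelled tKO. The cells carried 528440, 409933, 202737 and 220260 UMIs, with medians of 7391, 8380, 7671 and 6431 per cell. Over the libraries, 32 barcodes occurred in 2 of them, 1 of which was an Nkg7+ T cell in one library, and none was so in both. Scrublet called 7 of the 149 cells doublets.

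The comparators were 188 T cells chosen by the same limits but with no Nkg7 UMI and at least 1 of Il7r, the interleukin-7 receptor (113, 32, 17 and 26 cells, 1530061 UMIs). They are called Il7r+ T cells. A second comparator was 41 leukocytes with at least 2 Nkg7 UMIs and none of the 3 Cd3 genes (30, 7, 1 and 3 cells). The rule used Nkg7, Cd3 and Il7r, and the cells were selected on measured values, so every difference between these populations is given as a description. At the edge of the rule, 16 cells had exactly 2 Nkg7 UMIs and 21 otherwise similar cells had exactly 1. Ccl5 was at 264 CPM in the former, where 35 of its 38 UMIs came from 1 cell, and at 334 in the latter, where 33 of 52 did. Gzmb had 6 and 1 UMIs and Fasl 11, of which 9 came from 1 cell, and 9. Ms4a4b was at 514 and 513 CPM. Thus the cells just inside and just outside the limit had nearly the same Ms4a4b level, and Ccl5 in both was far below the 4451 of all 149 cells.

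The name of the population was checked against its marker genes, of which Nkg7 and, through the Cd3 sum, Cd3e were used by the rule and check nothing. All 149 cells had a UMI of a T cell receptor constant gene (lower 95% limit 97.6%) and 143 had Ms4a4b, a membrane protein of T cells. Ccl5, a chemokine for T cells and monocytes, was found in 99 of the cells (66.4%), Fasl, the Fas ligand, in 63 (42.3%) and Gzmb, granzyme B, in 49 (32.9%). Ccl5, Gzmb, Fasl and Ms4a4b were found together in 26 cells (17.4%). At least 1 UMI of Gzma, Gzmb, Gzmk or Prf1 was present in 88 cells (59.1%), and none in 61 (40.9%). The latter were 19, 28, 8 and 6 cells, so that only 30% of the Nkg7+ T cells of the control library labelled tKO had a granzyme or perforin UMI, against 66.7, 68 and 77.8% in the other libraries. Per cell, Nkg7 ranged from 2 to 60 UMIs with a median of 7, Ms4a4b from 0 to 23 with a median of 6, Gzmb from 0 to 57 with a median of 0 and Ccl5 from 0 to 376 with a median of 12. The medians of Ccl5 were 25, 0, 47 and 6 in the 4 libraries.

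Since Nkg7 defines the cells, and Gzmb, Fasl and Xcl1 were among the effector genes that set them apart from Il7r+ T cells, the 250 bases upstream of their RefSeq start sites (GRCm38.p6) are shown, 5′ to 3′ on the strand of the gene. Nkg7 lies at chr7:43437073-43438249 on the plus strand, Gzmb at chr14:56258838-56262260, Fasl at chr1:161780689-161788495 and Xcl1 at chr1:164931644-164935527 on the minus strand (GENCODE M21). Of 12 genes looked up, 9 were in the promoter table. Capitals mark matches, on either strand, to the letters TCACAC (T-box factors, such as Tbx21 and Eomes), TGTGGT (Runx factors) and TGANTCA (AP-1).
Nkg7, chr7:43436888-43437137: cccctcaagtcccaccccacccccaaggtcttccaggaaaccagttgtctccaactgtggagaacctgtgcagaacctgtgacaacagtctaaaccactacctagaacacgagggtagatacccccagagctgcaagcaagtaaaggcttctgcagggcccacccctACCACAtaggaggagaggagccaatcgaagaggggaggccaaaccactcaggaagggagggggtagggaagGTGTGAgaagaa
Gzmb, chr14:56262335-56262584: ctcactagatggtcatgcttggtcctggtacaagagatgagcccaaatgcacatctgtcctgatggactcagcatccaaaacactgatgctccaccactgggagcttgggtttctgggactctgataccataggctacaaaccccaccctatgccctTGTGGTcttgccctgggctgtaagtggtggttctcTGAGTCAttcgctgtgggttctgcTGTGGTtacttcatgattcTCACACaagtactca
Xcl1, chr1:164935523-164935772: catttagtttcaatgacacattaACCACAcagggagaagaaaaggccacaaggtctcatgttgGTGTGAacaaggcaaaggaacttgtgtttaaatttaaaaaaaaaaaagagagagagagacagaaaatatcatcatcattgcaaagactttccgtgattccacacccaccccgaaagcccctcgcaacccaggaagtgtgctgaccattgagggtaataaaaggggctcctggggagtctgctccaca
Fasl, chr1:161788496-161788745: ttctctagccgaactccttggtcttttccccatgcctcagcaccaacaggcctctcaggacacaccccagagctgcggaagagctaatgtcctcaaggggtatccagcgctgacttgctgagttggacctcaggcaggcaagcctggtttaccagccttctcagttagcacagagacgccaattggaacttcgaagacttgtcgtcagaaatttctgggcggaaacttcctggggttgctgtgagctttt
Distances below are from the RefSeq starts, which differ from the GENCODE starts for Nkg7, Gzmb and Xcl1. The windows of Nkg7 and Xcl1 reach into the GENCODE gene, and that of Gzmb ends short of it. The T-box letters began 12 bases before the RefSeq start of Nkg7, 15 before that of Gzmb and 187 before that of Xcl1. Those of Nkg7 lie within its GENCODE gene. The Runx letters began 83 bases before Nkg7, 93 and 34 before Gzmb and 227 before Xcl1, and the AP-1 letters 58 before Gzmb. The Fasl window held none of the 3, nor did those of Ms4a4b and Ifng, while those of Prf1, Cxcr6 and Ly6c2 held 1 Runx match each. Of 32851 promoter windows of this length, 4039 (12.3%) held the T-box letters, 4614 (14%) the Runx letters and 2217 (6.75%) the AP-1 letters. A match is a description of the sequence and not a bound site.

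Against the Il7r+ T cells, the Nkg7+ T cells had more of several granule genes and NK receptors and of Cd8a and Cd8b1, and less of the gamma delta T cell genes, while cytokines, chemokines and transcription factors differed in both directions. A gene was counted as higher or lower when the ratio of summed UMIs was at least 2-fold and had the same direction in all 4 libraries, among genes with at least 20 UMIs. Of 8836 such genes, 3.09% were higher and 4.35% lower in the Nkg7+ T cells. Of the 18 measured genes of cytotoxic granules and death ligands other than Nkg7, 9 were higher and none lower, with a median log2 ratio of 0.96 against -0.03 over all genes. Since the rule chose cells on Nkg7, nothing is read from these counts.

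**Figure D1:**
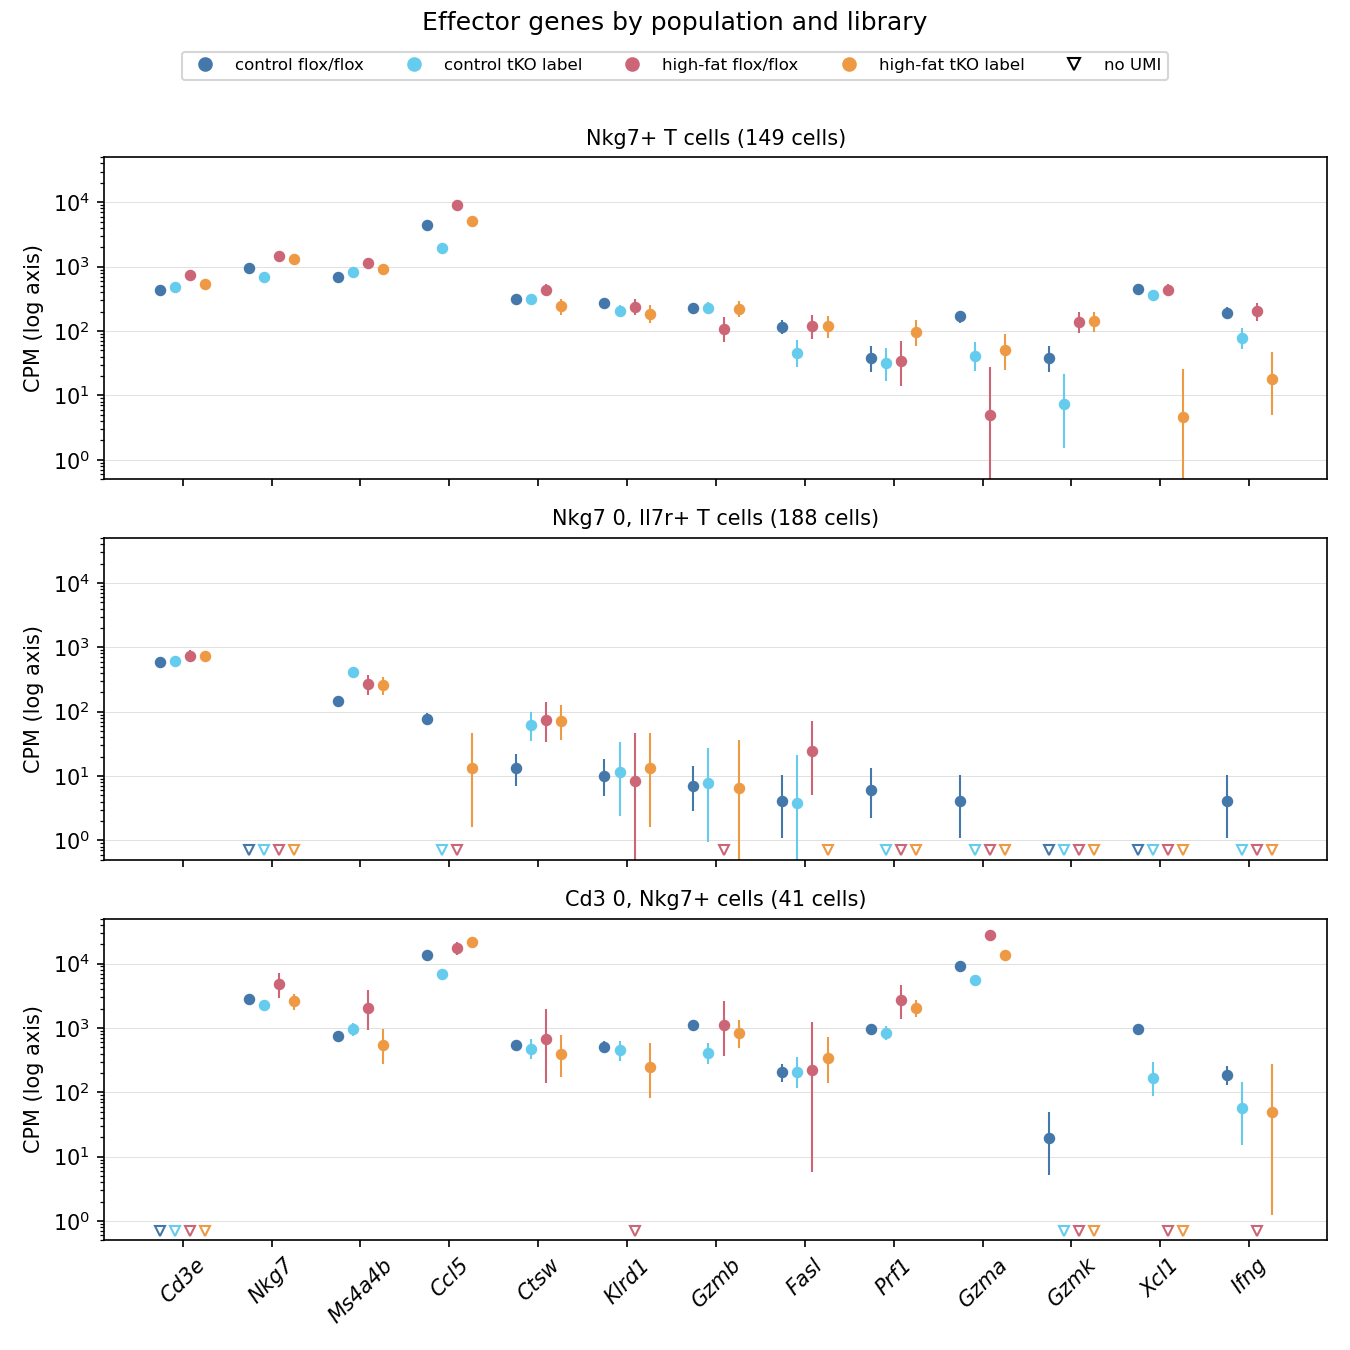
Levels of 13 genes in CPM (log axis) in the Nkg7+ T cells, the Il7r+ T cells and the Cd3-negative Nkg7-positive cells, 1 point per library with its 95% counting interval, and an open triangle where a library had no UMI. Ccl5 lies between 1932 and 8977 in the Nkg7+ T cells and between 0 and 77.3 in the Il7r+ T cells, and Xcl1 is near the bottom of the top panel in the high-fat library labelled tKO alone.

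Among the granule genes, Gzmb was at 225, 229, 109 and 222 CPM in the Nkg7+ T cells and at 6.54 over all Il7r+ T cells (log2 ratio 5.00, 4.10 to 6.07). It was present at a similar level in 3 libraries and lower in the high-fat flox/flox library, but in the control library labelled tKO 57 of its 94 UMIs came from 1 cell and in the high-fat library labelled tKO 31 of 49. The share of cells with Gzmb was 43.9% (30.7 to 57.6), 17.5% (7.34 to 32.8), 40% (21.1 to 61.3) and 25.9% (11.1 to 46.3). By cells the 2 libraries labelled tKO were thus the low ones. Their intervals overlapped those of the flox/flox library of the same diet. Prf1, perforin, was at 37.8, 31.7, 34.5 and 95.3 CPM against 3.92 (log2 ratio 3.51), highest in the high-fat library labelled tKO. Gzma, granzyme A, was at 168, 41.5, 4.93 and 49.9 against 2.61, and was carried by 19 of the 149 cells. Gzmk, granzyme K, was at 37.8, 7.32, 138 and 141, with no UMI in Il7r+ T cells, at least 30.7-fold higher (against a limit of 3 UMIs over the group). The 2 high-fat libraries thus had the most Gzmk. Ctsw, cathepsin W, a protease of cytotoxic lymphocytes, was at 316, 309.8, 429 and 241 CPM against 32, with UMIs in 123 of the 149 cells. Fasl was at 115, 46.3, 118 and 118 against 5.23 (log2 ratio 4.19, 3.17 to 5.43), and lower in the control library labelled tKO than in the others. The serpins Serpinb9 and Serpinb6b, of which the former inhibits granzyme B, were at 120.5 against 57.5 and at 156 against 37.3. Cst7 (cystatin F, 59.5 against 43.8) and Srgn (serglycin, the proteoglycan of granules, 959 against 1246) stayed under the 2-fold limit. Srgn is also made by many other leukocytes.

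Of 13 cytokine and chemokine genes, 4 were higher (Ccl5, Xcl1, Ccl4 and Ifng) and 3 lower (Il17a, Areg and Lta). Ccl5 (chr11:83525778-83530518) was at 4424, 1932, 8977 and 5035 CPM in the Nkg7+ T cells and at 51.6 over all Il7r+ T cells, a log2 ratio of 6.43 (6.11 to 6.77). The libraries did not overlap between the 2 populations. Xcl1, which attracts cross-presenting dendritic cells, was at 454, 359, 439 and 4.54 CPM (240, 147, 89 and 1 UMIs) and had none in Il7r+ T cells, at least 179-fold higher. It came from 31, 16, 15 and 1 cells, so it was frequent in 3 libraries and nearly absent from the high-fat library labelled tKO. Ifng, interferon gamma, was likewise lowest there, at 193, 78.1, 202 and 18.2 against 2.61 (log2 ratio 5.65), and 30 of its 45 cells also carried Xcl1. Ccl4, another chemokine, was at 683, 63.4, 192 and 49.9 against 7.84, with up to 113 UMIs in 1 cell. Tnf (69 against 118) and Ltb (lymphotoxin beta, 361 against 669) had log2 ratios of -0.77 and -0.89.

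Of 10 measured NK receptors that T cells can share, 6 were higher and none lower, with a median log2 ratio of 4.08. Klrd1 (CD94), the partner of NKG2 receptors, was at 276, 205, 237 and 186 CPM against 10.5 (log2 ratio 4.49, 3.76 to 5.31), and was present in 87 cells. Its partners Klrc1 and Klrc2 had log2 ratios of 5.71 and 5.49, and Cd160 and Slamf7 6.03 and 3.15, while Klrk1 (NKG2D) was at 175 against 90.8. Of the Ly49 and related NK markers, Klra9, Klra7 and Klre1 had no UMI in Il7r+ T cells and were at least 71.2-, 39.7- and 46.8-fold higher. The Klra genes are close paralogs whose reads may be split among them, so their single values are uncertain. Ncr1, a receptor that marks NK cells, was found in 5 Nkg7+ T cells, all in the control flox/flox library, and was at 0 in the other libraries. The whole list of 14 NK markers summed to 1802, 795, 947 and 876 CPM, with Txk as its most abundant gene over all libraries.

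The T-box factors Tbx21 and Eomes, which drive effector genes in T and NK cells, were both higher. Tbx21 was at 43.5, 56.1, 64.1 and 18.2 CPM against 1.96 (log2 ratio 4.56), and Eomes at 49.2, 7.32, 24.7 and 59 with no UMI in the Il7r+ T cells, at least 17.6-fold higher. Hopx (225 against 28.8) and Zeb2 (109 against 28.1) were the other higher ones among 19 transcription factors. Runx3, which the CD8 lineage requires, was at 213 against 146, and Tcf7 and Lef1, factors of naive and memory T cells, had log2 ratios of 0.03 each (-0.21 to 0.26). Ly6c2, a surface protein of memory CD8 T cells and other leukocytes, reached 791, 488, 548 and 286 CPM against 8.50, among the highest ratios of all genes (log2 6.1, 5.32 to 7.01). Plek, pleckstrin, was also among the 15 genes with the highest ratios, at 107 against 13.1.

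Of the MS4A family of membrane proteins, 4 of 6 measured genes were higher and none lower, with a median log2 ratio of 1.51. Ms4a4b (chr19:11443553-11467055, plus strand) was at 685, 819.6, 1149 and 931 CPM in the Nkg7+ T cells and at 147, 406, 265 and 256 in the Il7r+ T cells, a log2 ratio of 1.98 (1.80 to 2.17). The 2 sets of libraries did not overlap, but both populations expressed it. Ms4a6b was at 337, 351, 572 and 381 against 173, Ms4a4c at 38.9 against 10.5, and Ms4a6d at 14 against 1.96. The last pair are also expressed by myeloid cells. In the same comparison the 9 macrophage markers summed to 1676 against 299 CPM (median log2 ratio 2.87), of which 1 was counted as higher, and the 5 smooth muscle markers to 2110 against 776, with 2 counted as higher.

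The coreceptor Cd8b1 was at 184, 339, 409 and 531 CPM against 52.9 (log2 ratio 2.60) and Cd8a at 64.3, 146, 168 and 327 against 19.6. Cd4 was at 16.9 against 46.4. Of 15 T cell receptor and signalling genes, the kinase Lck (252 against 103) and the surface proteins Cd2 (271 against 125) and Cd6 were higher, and Cd247, the zeta chain, was lower (91.1 against 225). The receptor chains Trac (400.3 against 253) and Trbc2 (1089 against 908) stayed under 2-fold.

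**Figure D2:**
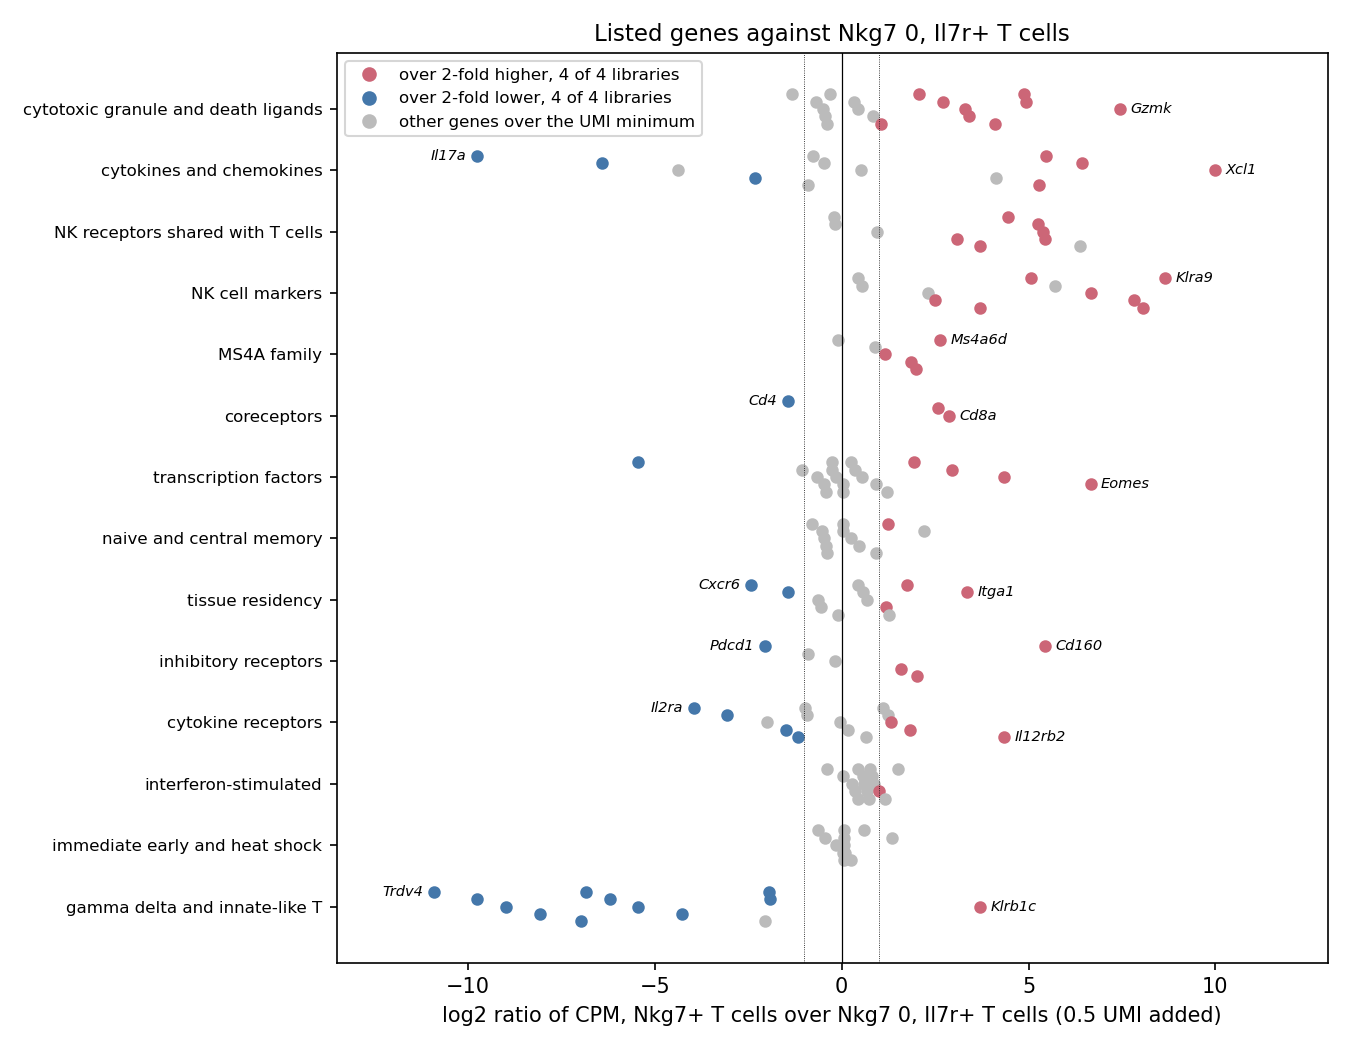
Log2 ratio of summed UMIs (0.5 added to each) of the Nkg7+ T cells over the Il7r+ T cells for the genes of 14 lists, 1 point per gene. Genes over 2-fold higher in 4 of 4 libraries are red, those lower blue, and the gamma delta list lies mostly at the lower end while the NK receptors lie at the upper end.

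Genes of gamma delta and interleukin-17-producing T cells were among those at the lower end, beside others such as Areg and Tnfsf11. Of 13 genes of the gamma delta and innate-like list 11 were lower and 1, Klrb1c (NK1.1), was higher, with a median log2 ratio of -6.19. Trdc, the delta chain, had 23 UMIs in the Nkg7+ T cells, all in 4 cells of the control library labelled tKO, or 16.9 CPM against 1257 in Il7r+ T cells. Trdv4, Il17a, Blk and Il23r had no UMI in the Nkg7+ T cells and were at least 303-, 136-, 78.6- and 42.4-fold lower. Cd163l1 and Tcrg-C1 had log2 ratios of -7.09 and -4.28. With every cell thinned to 2000 UMIs, Trdc was found in 47.3% of the Il7r+ T cells and in 2.03% of the Nkg7+ T cells. The ratios above therefore compare the Nkg7+ T cells with a mixture in which many cells carried the delta chain.

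Receptors for homing and growth differed in both directions. Of 12 measured chemokine and lipid receptors 2 were higher, Cxcr4 (131 against 47.1) among them, and 4 lower. The lower ones were Cxcr6 (112 against 604), Ccr2 (84.5 against 408), Ccr4 and Gpr183 (198 against 599), which guides cells along oxysterols. Of 12 genes of tissue residency the integrin chains Itga1 (63.2 against 5.88), Itga4 and Itgb1 were higher and Cxcr6 and Itgb7 lower. Among 15 cytokine receptors, Il12rb2, Il21r and Il6ra were higher, and Il2ra, Il12rb1, Il18r1 and Il27ra lower. Il7r, which the rule required in the comparator, was present in 98 of the 149 Nkg7+ T cells. Of 6 measured inhibitory receptors 3 were higher, Cd160, Entpd1 (CD39) and Cd200r4, and 1, Pdcd1, was lower (median log2 ratio 0.71). Pdcd1 (PD-1) was at 47.3, 24.4, 74 and 104 CPM against 223 in Il7r+ T cells. Lag3, Havcr2 and Tigit, other inhibitory receptors, had 7, 7 and 4 UMIs in all of the Nkg7+ T cells.

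Of 6 measured regulatory T cell genes 3 were lower and none higher, with a median log2 ratio of -1.29. For 6 type 2 innate lymphoid genes these were 2 and none, with -2.73, while 4.35% of all genes were lower. The lists that follow held few genes past the limit. None of 11 MHC class I genes and none of 12 immediate early and heat shock genes was counted, and of 16 interferon-stimulated genes only Irf7 was higher (47.7 against 23.5). The median log2 ratios of these lists were -0.00, 0.06 and 0.64, against -0.03 over all genes, so the interferon-stimulated list lay above the middle of all genes. Of 11 measured genes of Nrf2 and its targets, only Srxn1, sulfiredoxin, was counted, and it was lower (2.94 against 12.4).

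Against the 41 Cd3-negative Nkg7-positive cells, the Nkg7+ T cells had less of most NK markers and of some granule genes. Of 7215 genes tested, 6.58% were higher and 1.19% lower. The 86 lower genes became 241 without the high-fat flox/flox library and 263 with Nkg7 from 1 UMI. Without the control flox/flox library, the 475 higher genes became 740. Of 14 NK markers, 8 were lower and none higher, and of 17 cytotoxic genes, 7 were lower and 2 higher, while 8 of 15 T cell receptor genes were higher. The high-fat flox/flox library held 1 Cd3-negative cell, and a gene without a UMI in it could be counted only as higher. Of the 14 NK markers 8 had a UMI in that cell, so no more than 8 could be counted as lower. Nothing is read from these counts and shares. The median log2 ratio of the 14 NK markers was -2.84. Gzma was at 86.7 CPM against 8839 (log2 ratio -6.67), Prf1 at 44.8 against 1028, Ncr1 at 4.41 against 390.1 and Tyrobp, a signalling adaptor of NK and myeloid cells, at 217 against 2205. Gzmb (209 against 939), Ccl5 (4451 against 12628) and Fasl (log2 ratio -1.17) were also lower. Gzmk went the other way, at 60.2 against 13.2. Ms4a4b was at 834 against 807, a log2 ratio of 0.05 (-0.15 to 0.25), and Ifng at 131 against 142. Cd8b1, Ccr7 and Cxcr6 had no UMI in the Cd3-negative cells and were at least 32.3-, 25- and 11.3-fold higher. In 3 of the 4 libraries this comparison rests on 1 to 7 Cd3-negative cells. RNA of other cell types differed in it too, with 3 of 9 macrophage markers higher (median log2 ratio 2.27, 1676 against 407 CPM). In the Cd3-negative cells the neutrophil markers summed to 17828 CPM, 99.6% from 1 cell, and the smooth muscle markers to 4502, 86.1% from 1 cell.

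The Nkg7+ T cells were not uniform in their coreceptors. By UMIs, 85 (57%) carried Cd8a or Cd8b1 and no Cd4, 10 carried Cd4 alone, 1 carried both and 53 (35.6%) none of the 3. The Cd8 class held 43.9, 57.5, 60 and 81.5% of the cells and the class without coreceptor UMIs 42.1, 40, 32 and 18.5%. An absent UMI does not show an absent transcript at a median of 7671 UMIs per cell. Between these classes the effector genes split into groups. Xcl1 was at 758 CPM in the cells without coreceptor UMIs, where 37 of 53 carried it, and at 116 in the Cd8 class, where 21 of 85 did, higher in the former in 3 libraries and with 1 UMI in all in the high-fat library labelled tKO. Fasl (145 against 52.1), Ifng (226 against 89), Tbx21 (84.7 against 17.8), Klrb1c (109 against 1.27) and Klre1 (176 against 36.9) were likewise at higher levels without coreceptor UMIs. Gzmk (4.34 against 100.4), Klf2 (182 against 594) and S1pr1 (86.9 against 259), of which the last pair are genes of recirculating T cells, were at higher levels in the Cd8 class. Other genes differed in direction between libraries. Ccl5 was at 6089, 1080, 13487 and 5502 CPM in the Cd8 class and at 3685, 3471, 4091 and 617 without coreceptor UMIs, lower in the Cd8 class in the control library labelled tKO and higher in the other 3. Gzmb was at 58.5, 14.7, 108 and 231 in the Cd8 class against 269, 691, 107 and 142, so its level was higher without coreceptor UMIs in the 2 control libraries. As given above, 57 of the Gzmb UMIs of the control library labelled tKO came from 1 cell. In the high-fat library labelled tKO 31 of the 46 Gzmb UMIs of the Cd8 class came from 1 cell, so no direction is read there. Prf1 (58.5 against 26.1 over all libraries) was lower in the Cd8 class in the high-fat library labelled tKO, where the cells without coreceptor UMIs had 4 UMIs of it. Ccr7 (323 against 137) was about level in the control library labelled tKO, at 413 against 438, where 50 of the 57 UMIs without coreceptor came from 1 cell. Fcer1g, an adaptor shared by NK and myeloid cells, was at 502 against 71.2. Klrb1c (NK1.1) was carried by 32 cells (18, 8, 4 and 2), of which 26 had Xcl1, at 973 CPM, and none had Ccr7. Of the 10 cells with Cd4 alone, all carried Ms4a4b and 9 carried Ccl5, at 2785 CPM.

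**Figure D3:**
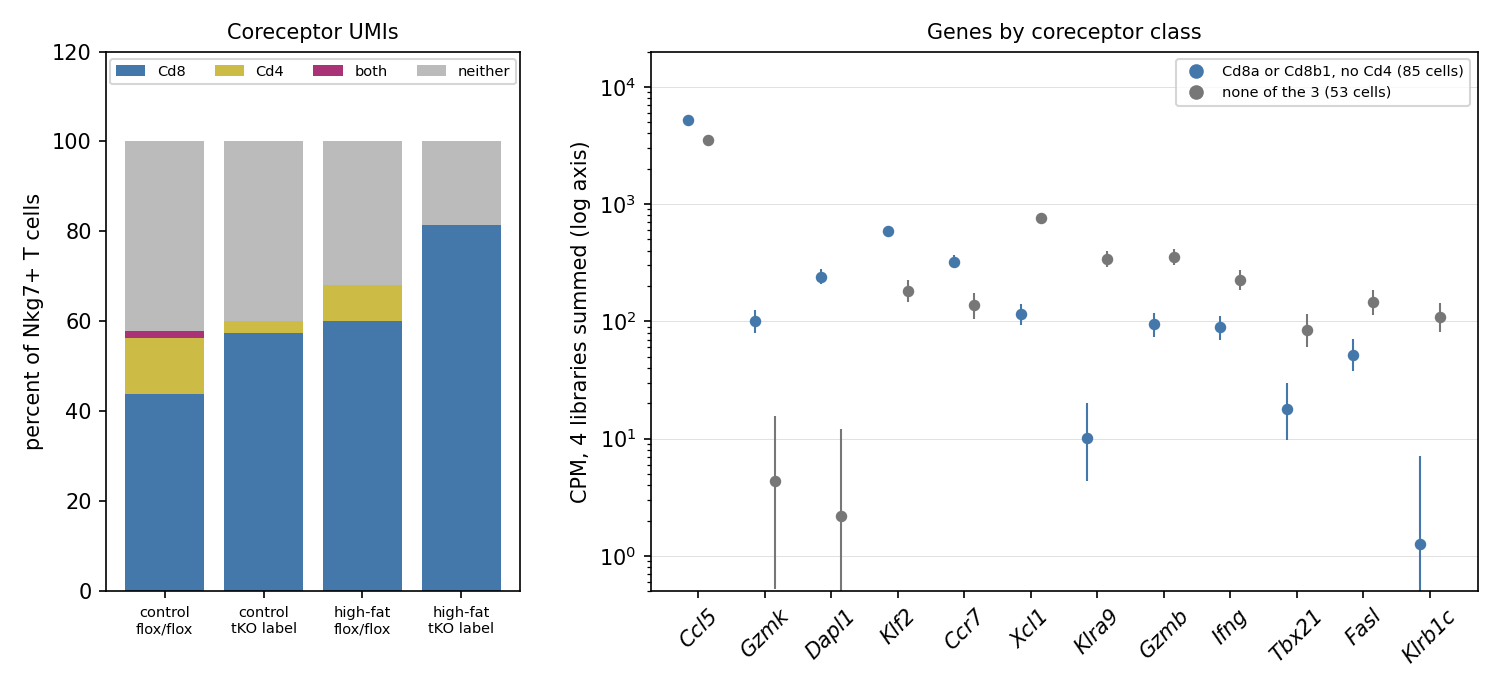
Left, percent of the Nkg7+ T cells of each library by coreceptor UMIs, with the Cd8 class rising from 43.9% in the control flox/flox to 81.5% in the high-fat library labelled tKO. Right, levels of 12 genes (CPM over the 4 libraries summed, log axis, with 95% counting intervals) in the Cd8 class and in the cells with no coreceptor UMI, where Xcl1 is at 116 and 758.

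Other genes of these classes were picked after their values were seen. Among those with the same direction in all 4 libraries, Klra9 had 158 UMIs in the cells without coreceptor UMIs and 8 in the Cd8 class, and Cd40lg, the ligand of CD40, 83 and 1. In reverse, Dapl1 had 1 and 189, Gzmk 2 and 79 and Themis, a regulator of T cell receptor signals, 4 and 85. Of the 28 cells with Klra9 UMIs, 20 carried Xcl1 (71.4%). Klra9 was at 343 CPM without coreceptor UMIs and 10.2 in the Cd8 class. Over all libraries, Xcl1, Klra9 and Fasl thus had their higher levels in the class that held no coreceptor UMI, and Gzmk and Dapl1 in the Cd8 class.

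A second division was by Ccr7, a chemokine receptor for lymph node entry, and was also chosen after the values were seen. A Ccr7 UMI was present in 54 cells (36.2%), or 28.1, 57.5, 20 and 37% in the libraries. Gzmb was found in 1 of these 54 cells and in 48 of the 95 others, and Ccl5 in 20 and 79. Their median depths were 9808 and 6920 UMIs per cell, so the cells with fewer Gzmb UMIs were the deeper ones. Without Ccr7, Ccl5 was at 7060 CPM against 1148 with it, Ifng at 226 against 11.6, Xcl1 at 548 against 99.8 (432 against 464 in the high-fat flox/flox library) and Nkg7 at 1457 against 456. Nkg7 was used by the rule, and nothing is read from its values. Fasl had 129 UMIs without Ccr7 and 1 with it, Gzmk 78 and 4, and Klra9 190 and 0. Dapl1 lay the other way, at 15.8 against 296 CPM. Prf1 (50.0 against 38.3), Klrd1 (299 against 153) and Ms4a4b (921 against 726) differed less. Most cells with Ccr7 were of the Cd8 class, 47 of 54. Of the Cd8 class, 14, 19, 4 and 10 cells carried Ccr7 and 11, 4, 11 and 12 did not, so the control library labelled tKO had few Cd8 cells without it.

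**Figure D4:**
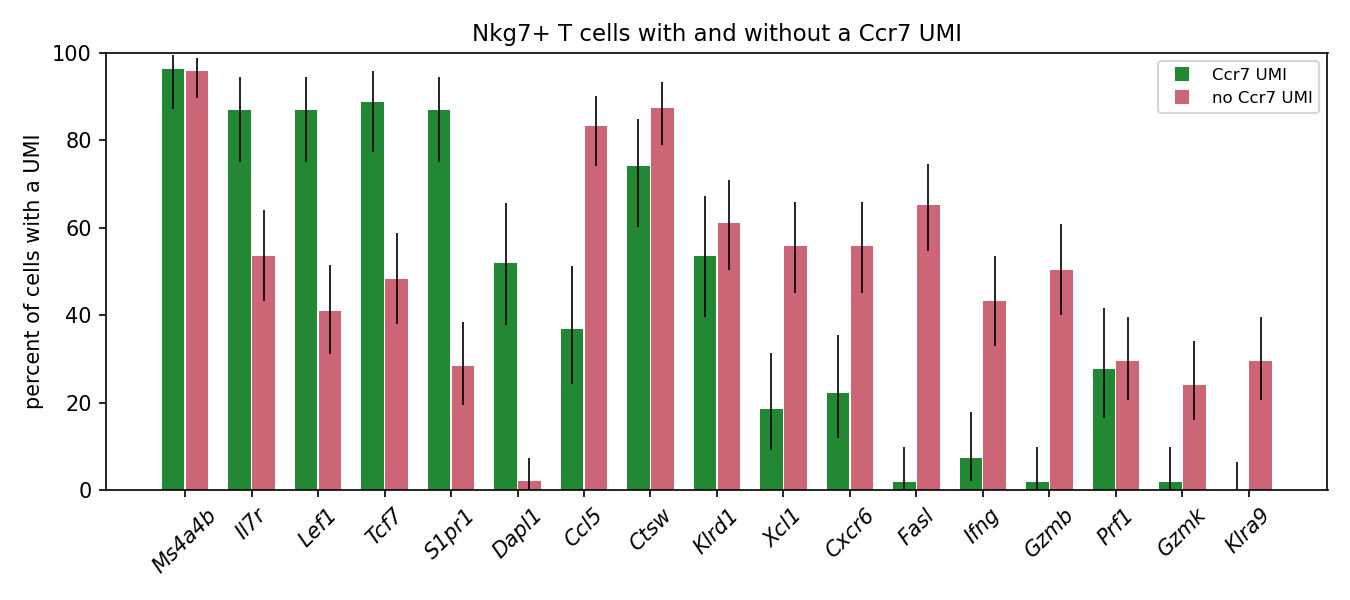
Percent of cells with a UMI of each of 17 genes among the 54 Nkg7+ T cells with a Ccr7 UMI and the 95 without, with 95% exact Clopper-Pearson intervals as error bars. Gzmb is in 1 of the former and 48 of the latter, while Ms4a4b is frequent in both.

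For the diet, the high-fat library was set against the control library of the same genotype label, with 1 library each. In the flox/flox pair, 4396 genes had at least 20 UMIs, of which 5.57% were at least 2-fold higher and 10.9% lower with the high-fat diet. In the pair labelled tKO these were 4.38 and 10.8% of 4156. Ccl5 was higher on the diet in both, by a log2 ratio of 1.02 (0.93 to 1.11) in flox/flox and 1.38 (1.25 to 1.52) in the pair labelled tKO. Ccr7, with 108, 169, 17 and 44 UMIs or 204, 412, 83.9 and 199.8 CPM, was lower in both, by log2 ratios of -1.29 (-2.12 to -0.54) and -1.05 (-1.56 to -0.56). Gzmk, with 20, 3, 28 and 31 UMIs, had log2 ratios of 1.87 (0.99 to 2.77) and 4.27 (2.58 to 6.62). Ccr7 lay near the 2-fold limit, and was short of it in flox/flox with Nkg7 from 1 UMI (-0.71) and from 3 (-0.99), and in the pair labelled tKO without its highest cell in each library (-0.95) and with median-of-ratios scaling (-0.94). The 2 high-fat libraries therefore had more Ccl5 and Gzmk and less Ccr7 per UMI than the control library of the same label. Gzmk was found in 24 cells, was not run under the alternatives and is not given here within the coreceptor classes. Its level was higher in the Cd8 class. That class held 60% of the high-fat against 43.9% of the control cells in flox/flox, and 81.5 against 57.5% in the pair labelled tKO. The part of these shares in its ratios was not tested.

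Because the coreceptor classes differ in number between libraries, Ccl5 was read within them too. In the Cd8 class the diet ratios of Ccl5 were 1.15 (1.04 to 1.26) and 2.35 (2.16 to 2.54) on the log2 scale, and in the cells without coreceptor UMIs 0.15 (-0.04 to 0.34) and -2.49 (-3.41 to -1.70). Hence the higher Ccl5 was seen in the Cd8 class in both pairs and not in the other class. In the pair labelled tKO that other class held only 5 high-fat cells against 16 control cells. Ccr7 in the Cd8 class had diet ratios of -1.70 and -0.90. Without the cells that carried over 1% UMIs of other lineages, the diet ratios of Ccl5 over all Nkg7+ T cells were 0.99 and 1.34. In flox/flox Ccl5 lay at the 2-fold limit, and its log2 ratio was under it in other alternatives too, at 0.79 without its highest cell in each library, 0.79 as a mean over cells, 0.92 with Nkg7 from 1 UMI and 0.98 with Nkg7 from 3.

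**Figure D5:**
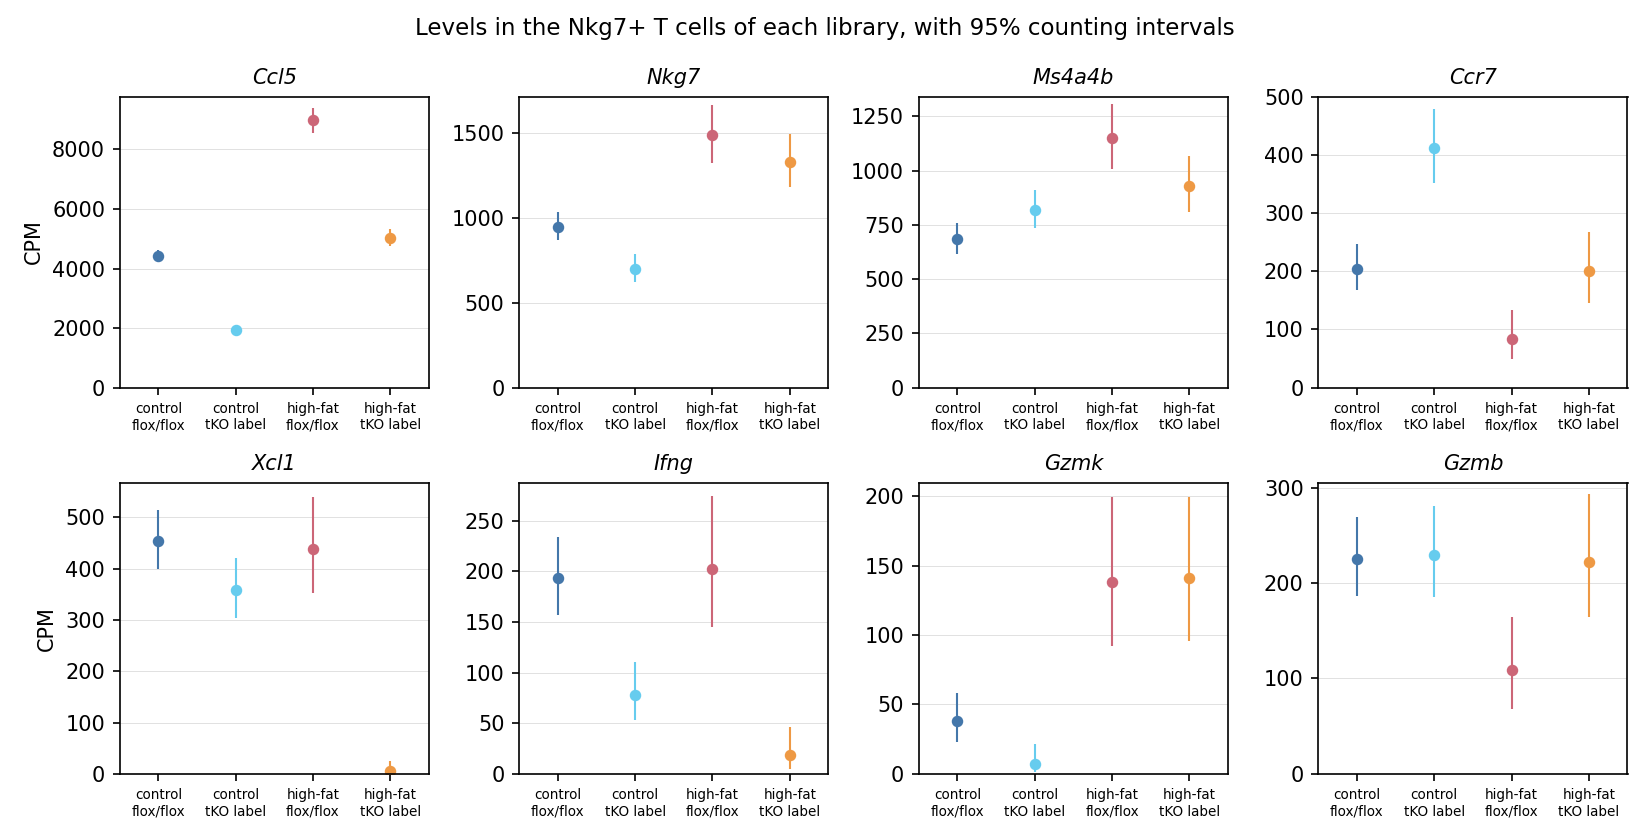
Levels of 8 genes in CPM in the Nkg7+ T cells of each library, with 95% counting intervals, each panel starting at 0. Ccl5 is higher and Ccr7 lower in each high-fat library than in the control library of the same label, and Xcl1 is at 4.54 in the high-fat library labelled tKO against 359 to 454 in the others.

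Of 724 genes measured in both diet pairs with at least 100 UMIs, 3 were past 2-fold higher in both (Ccl5, Cst3 and Lars2) and 5 lower (Atf3, Ccr7, Dusp1, Gm10076 and Rgs2), with the limits on Ccl5 and Ccr7 given above. Another 5 (C1qa, C1qb, Cd74, Lyz2 and Zbtb20), of which the first 4 are genes of macrophages or antigen-presenting cells, were past 2-fold in opposite directions in the pairs. In the high-fat flox/flox library, 519 of the 552 UMIs of Cst3, cystatin C, came from 1 cell. Atf3, a stress-induced factor, had log2 ratios of -3.43 and -1.04, Dusp1, a phosphatase of MAP kinases, -1.01 and -1.18, and Rgs2, a regulator of G-protein signals, -1.12 and -1.08. Of 12 immediate early and heat shock genes, 4 were lower in flox/flox and 5 in the pair labelled tKO, and none was higher in either. Such genes also respond to tissue dissociation, and the time from tissue to sorting in each library is not given in the sources used here. Of the cytotoxic list, 1 of 16 was higher (Gzmk) and 3 lower (Gzma, Gzmb and Ctsc) in flox/flox, whereas in the pair labelled tKO 4 of 14 were higher (Gzmk, Prf1, Fasl and Ctsc) and none lower. As counted in the diet and label pairs, this list includes Nkg7, which the rule used and from which nothing is read. Ctsc, cathepsin C, is also made by myeloid cells, and it moved in the same direction as the macrophage markers in these pairs and in both label pairs. Gzmb in flox/flox had a log2 ratio of -1.05 (-1.78 to -0.39) over all Nkg7+ T cells but of 0.89 (-0.40 to 2.17) in the Cd8 class alone. In the pair labelled tKO it was near 0 over all cells, -0.04, and 3.97 (2.52 to 5.91) in the Cd8 class, from 46 against 4 UMIs, of which 31 of the 46 came from 1 cell. None of 18 T cell receptor and signalling genes passed 2-fold in either pair. Among these, Cd3d, Cd3e and Cd3g were used by the rule, and nothing is read from them.

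For the genotype label, the libraries labelled tKO were set against the flox/flox libraries of the same diet, which are the same 4 libraries as in the diet pairs. Of 5339 genes in the control pair, 9.25% were at least 2-fold higher and 6.03% lower in the library labelled tKO, and of 2881 in the high-fat pair 6.84 and 6.28%. Without the 18 cells over 1% UMIs of other lineages, the 494 higher and 322 lower genes of the control pair became 176 and 261, and the 197 and 181 of the high-fat pair 68 and 117, with fewer genes over the minimum. Immediate early and heat shock genes were higher with the label for 4 of 12 in the control pair (median log2 ratio 0.48). In the high-fat pair 1 of 11 was higher (median 0.38), and none was lower in either. Naive and central memory genes were higher with the label in both pairs, 6 of 13 and 4 of 11, and none was lower. Ccr7 had log2 ratios of 1.01 and 1.25, and Dapl1 (24, 108, 6 and 52 UMIs, in 9, 12, 1 and 8 cells) and Igfbp4 passed 2-fold in both. The control value of Ccr7 was under 2-fold without its highest cell in each library (0.81), without cells with Ncr1 (0.86), with Cd3 from 3 UMIs (0.97) and with median-of-ratios scaling (0.99), and the high-fat value with Nkg7 from 1 UMI (0.81), as a mean over cells (0.96) and in the Cd8 class (0.79). Within the Cd8 class, Ccr7 in the control pair had a log2 ratio of 0.01, so there its difference did not appear. Ccl5 was lower with the label, by log2 ratios of -1.20 and -0.83, or -0.93 and -0.57 without the cells over 1% UMIs of other lineages. In the Cd8 class these were -2.50 (-2.68 to -2.31) and -1.29 (-1.41 to -1.18), and without coreceptor UMIs -0.09 (-0.25 to 0.08) and -2.73, the last from 5 against 8 cells. Of the cytotoxic list 6 of 16 genes were lower in the control pair (Fasl, Gzma, Gzmk, Ctsc, Serpinb6b and Rab27a), while in the high-fat pair Gzmb and Prf1 were higher and Serpinb6b lower, of 13. Without its highest cell in each library, Gzmb in the high-fat pair had a log2 ratio of -0.04.

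Xcl1 had the lowest ratio among the effector genes. In the high-fat pair its log2 ratio of the library labelled tKO over flox/flox was -6.60 (-11.91 to -4.08), from 1 UMI against 89. In the control pair it was -0.34, and 0.47 without the 5 cells of the control flox/flox library that carried Ncr1 and held 117 of the 240 Xcl1 UMIs there. The classes differed in that pair, with -2.60 (-3.64 to -1.68) in the Cd8 class, from 12 against 55 UMIs, and 0.47 (0.13 to 0.81) in the cells without coreceptor UMIs. Ifng had -3.48 (-5.42 to -2.01) in the high-fat pair and -1.31 in the control pair. The control value of Ifng was -0.68, under 2-fold, without the cells with Ncr1, and -3.16 in the Cd8 class. The class without coreceptor UMIs, in which Xcl1 was highest, held 5 cells in the high-fat library labelled tKO and 8 in the high-fat flox/flox library. In the Cd8 class of the high-fat pair Xcl1 had 1 against 23 UMIs, a log2 ratio of -5.37 (-10.73 to -2.74), and without coreceptor UMIs 0 against 57. Klra9 (6 against 44 UMIs) and Klrc2 (7 against 39) also passed 2-fold lower in this pair.

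Of the Nrf2 list, Hmox1 (heme oxygenase 1) was lower in the control pair (4 against 47 UMIs) and Txnrd1 (thioredoxin reductase 1) in the high-fat pair (5 against 15), each 1 gene of the 8 and 4 measured. Nqo1 had 1 UMI in all 149 cells, too few for a comparison. Hmox1 is also abundant in macrophages. Of the interferon-stimulated list, 3 of 13 were higher with the label in the control pair, Gbp2 and Zbp1 among them. In the high-fat pair 2 of 8, Ifi47 and Ifi209, were higher, and none of the list was lower in either pair. Over all genes 9.25 and 6.84% were higher and 6.03 and 6.28% lower in the control and high-fat pairs. Of 485 genes with at least 100 UMIs in both pairs, 5 were higher with the label in both (Ctsl, Igfbp4, Mfap4, Serpinf1 and Serping1) and 1, Dennd4a, was lower (log2 ratios -1.33 and -1.20), while 6 (Apoe, C1qa, C1qb, Cd74, Lyz2 and Zbtb20) were past 2-fold in opposite directions. Igfbp4, Mfap4, Serpinf1 and Serping1 are also made by stromal cells. In the control label pair 7 of 8 fibroblast markers were higher (median log2 ratio 1.66), and in the high-fat label pair none of 8 passed 2-fold (median 0.10). Of the macrophage markers 8 of 8 were lower in the control label pair and 5 of 5 higher in the high-fat label pair.

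RNA of other cell types moved with these comparisons. Over 1% of UMIs from genes of other lineages was found in 18 of the 149 cells (5, 6, 2 and 5), with a median of 0.186% and a highest value of 5.48%. All 9 macrophage markers had UMIs, with Lyz2 as the most abundant, and they summed to 2980, 281, 261 and 2447 CPM. In the high-fat library labelled tKO 69.4% of these came from 1 cell. In the flox/flox diet pair 8 of 8 macrophage genes were lower and in the pair labelled tKO 6 of 6 were higher, and Cd74, Lyz2 and C1qa were among the genes with the most extreme ratios. The 8 fibroblast markers, led by Gsn, summed to 3071, 7269, 6545 and 6483, with 93.4% from 1 cell in the high-fat flox/flox library. Of these 8, 5 were higher in the flox/flox diet pair and 2 lower in that labelled tKO. The 5 smooth muscle markers, led by Acta2, summed to 2477, 2630, 548 and 1698, with 80.0% from 1 cell in the control flox/flox library. Without the 18 cells the numbers of higher and lower genes went from 245 and 481 to 181 and 316 in the flox/flox diet pair and from 182 and 449 to 89 and 199 in that labelled tKO. Genes such as Igfbp5, Mgp and Dcn, with the highest ratios in the flox/flox diet pair, and Nppa, Eln and Dpt, with the highest in the control label pair, are known from stromal or muscle cells. Gm42418, a transcript that overlaps ribosomal RNA, also differed, at 4513, 15239, 17979 and 20508 CPM, lowest in the control flox/flox library.

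Other lineages had fewer UMIs. The endothelial genes Cdh5, Vwf, Kdr, Emcn and Cldn5 were at 0 in all 149 cells, and only Pecam1 had UMIs. The 7 B cell markers, led by Ighm, summed to 155, 163, 64.1 and 118 CPM. The 5 neutrophil markers, led by S100a9, summed to 98.4, 9.76, 74 and 4.54. Of the thymocyte genes Rag2 and Ptcra were at 0, as were Rag1 and Dntt by the rule, and Themis, which mature T cells share, was the most abundant. Foxp3, which defines regulatory T cells, had 1 UMI. Il13 and Il5, cytokines of type 2 lymphoid cells, had none, and Gata3 led their list.

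Free RNA was read in 2077 smooth muscle cells (Myh11 at least 3 UMIs, no Ptprc), which should lack these genes and had a median of 15552 UMIs against 7671 in the Nkg7+ T cells. Ccl5 was found in 103 of them (4.96%), Nkg7 in 0.818%, Gzmb in 0.193% and Xcl1 in 0.337%. With each cell thinned to 2000 UMIs, Ccl5 was found in 61.5% of 148 Nkg7+ T cells (1 shallower cell left out), in 1.63% of 184 Il7r+ T cells (4 left out) and in 0.834% of 2039 smooth muscle cells (38 left out). Gzmb was at 23, 0.543 and 0.049% and Ms4a4b at 75, 25 and 0.0981% in the same order. Thinned Xcl1 was found in 28.4% of the Nkg7+ T cells, in 0% of the Il7r+ T cells and in 0.147% of the smooth muscle cells. The shares in the Nkg7+ T cells were far above those in smooth muscle cells for each of these genes.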

How the data were processed

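The values the authors deposited are raw UMI counts per gene and cell barcode, not normalized, in 4 libraries of 31053 genes. Per the study's methods, 3′ reads of the 10x Chromium system were mapped to mm10 and counted with Cell Ranger 6.1.2, and the only step against doublets was the limit of 6000 genes. Of 15599 barcodes, 14148 passed the limits of the methods on genes and mitochondrial UMIs. The libraries held 98754487, 43717402, 12276546 and 24184211 UMIs, and kept cells had medians of 12133, 14152, 10963 and 9200 UMIs. Every value column of the count matrices was used (0 left out).

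For each population and library, the UMIs of a gene were added up and scaled to 1000000 (CPM). Cells are not replicates and each group is 1 library, so no test between groups was run. Log2 ratios have exact binomial intervals, shares exact Clopper-Pearson intervals and levels exact Poisson intervals, all at 95%, for counting error only. List medians are over log2 ratios with 0.5 UMIs added, and a ratio against no UMI is a bound at 3 UMIs over the group. Named genes were those of the fixed lists, the 15 highest and 10 lowest ratios among genes with at least 100 UMIs summed over both populations and with 1 direction in the 4 libraries, the 10 highest and 10 lowest ratios of each pair of libraries, and the 10 most abundant genes. The rule, the members and the lists were chosen with earlier results of these data known. Doublets were called with Scrublet in scanpy 1.11.5, 271 of 14148 cells, and kept. The scripts were tested on simulated data. Intervals were computed with scipy 1.17.1 and numpy 2.4.6, tables with pandas 2.3.3 and plots with matplotlib 3.10.9, under Python 3.11.15. Alternatives were limits on mitochondrial UMIs, Nkg7 and Cd3, doublets, cells with Ncr1, scaling, weighting of cells, the minimum of UMIs and each library left out. Some genes and an agent given with the high-fat diet are not reported here.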

Additional observations from a re-analysis of the deposited data

Results flagged for a closer look

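Listed genes whose diet ratios had intervals on opposite sides of 0 in the flox/flox pair and in the pair labelled tKO were noted. With 1 library per group, these differences between the pairs were not tested. Ctsc, cathepsin C, which activates granzymes, had log2 ratios of -1.29 in flox/flox and 1.52 in the pair labelled tKO. The immediate early gene Egr1 had 0.37 and -1.22. The signalling adaptors Fcer1g and Tyrobp, of NK and myeloid cells, had -2.81 and 0.69, and -3.59 and 2.75.

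For the label in the control pair and the high-fat pair, opposite log2 ratios were found for Ctsc (-1.95 and 0.86), Egr1 (1.05 and -0.54), Fcer1g (-1.70 and 1.78), Tyrobp (-3.72 and 2.61), Ms4a4b (0.26 and -0.30) and Prdx1, a peroxiredoxin (-0.52 and 0.51). These differences were not tested either, and the pairs share their 4 libraries with the diet pairs. The macrophage list, which summed to 2980, 281, 261 and 2447 CPM in the 4 libraries, was high in the same libraries as Ctsc, Tyrobp and Fcer1g, and its part in these ratios was not tested. Beyond the cells described, 4 barcodes with over 6000 genes met the limits on Cd3 and Nkg7.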

How the results depend on the processing

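The number of Nkg7+ T cells ranged from 131 to 170 over the alternatives, and of 768 alternative values of single genes 687 moved by less than their counting interval, 79 moved further and 2 reversed. The 687 include values that could not move. A minimum of 5 UMIs changes no ratio of a single gene. The mitochondrial limit of 10% kept the same 149 cells, so it left the diet and label ratios unchanged. Against the Cd3-negative cells, 263 genes were lower with Nkg7 at 1 UMI. Leaving out each library in turn gave 465 to 740 genes higher and 97 to 241 lower (740 and 152 without the control flox/flox library, 241 lower without the high-fat flox/flox library). With a minimum of 5 UMIs more genes were tested, and 789 were higher against the Cd3-negative cells, 937 higher and 1530 lower in the flox/flox diet pair, 847 and 1521 in the diet pair labelled tKO, 1478 and 986 in the control label pair and 1045 and 834 in the high-fat label pair. The next alternatives were added after the data were seen. Without cells over 1% of other-lineage UMIs, 316 genes were lower in the flox/flox diet pair, 89 higher and 199 lower in that labelled tKO, 176 higher in the control label pair and 68 higher and 117 lower in the high-fat label pair. Without the highest cell of each gene, 102 and 89 genes were higher in the diet pairs. In Cd8 cells alone, 140 were higher and 165 lower in the flox/flox diet pair and 118 lower in the control label pair. The log2 ratio of Gzmb for the label on high-fat diet became -0.04 without its highest cell, and for the diet 0.85 in flox/flox and 3.79 in the pair labelled tKO in Cd8 cells (0.5 UMIs added). The cause of these moves was not tested. Median-of-ratios scaling subtracted -0.10 to 0.02 from the log2 ratios of all genes. No paired analysis was possible because each diet and label group is 1 library, and populations within a library were compared by direction only. At 25 to 57 cells per library, genes under 20 UMIs were not compared.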

Other observations

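The most abundant transcripts of the Nkg7+ T cells outside ribosomal and mitochondrial genes were Malat1 (28074 CPM over all libraries), Gm42418, Tmsb4x (10704), Tpt1, Tmsb10, Eef1a1, Actb, Ccl5, Junb (3137) and Fth1. Of the effector genes, Ccl5 alone was among the 10. Gzmb UMIs were found with Ccl5 (41 of 49 cells, 83.7%), Fasl (33, 67.3%) and Prf1 (17, 34.7%). Gzmk and Gzmb shared 11 cells, of 24 and 49. Il7r was found in 23 of the 49 cells with Gzmb.

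Among the remaining genes with the lowest ratios against the Il7r+ T cells, Kcnk1, Rln3 and Tcrg-V6 had no UMI in the Nkg7+ T cells, at least 60.5-, 30- and 38.3-fold lower, and Tnfsf11 (RANK ligand) was at 4.41 against 354 CPM. Against the Cd3-negative cells, Bcl11b, a factor of the T cell lineage, was at 156 against 6.61 CPM. Cd5 and Cd40lg had no UMI in the Cd3-negative cells and were at least 9.7- and 8.22-fold higher. Irf8 was at 18.4 against 942 CPM.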
